A study of Homo sapiens with 18 samples.

Results

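The S100A genes of chromosome band 1q21 were described in HAP1 cells, a near-haploid human line from a chronic myeloid leukaemia, that lacked WAPL, SCC4 or both. The 10 genes are S100A1, S100A2, S100A3, S100A4, S100A5, S100A6, S100A10, S100A11, S100A13 and S100A16, out of 20329 genes counted. They were chosen by family and position around S100A6, which itself was chosen by its counts in these samples, namely its absence in one of the ΔWAPL clones and its presence in the other. The values of S100A6, and those of every member in that clone, are therefore given as a description. Where such a value is said to pass the threshold or is counted, this describes the fit and is not read as a test.

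Polyadenylated RNA was counted per gene in 18 samples, 3 in each of 6 groups. Wild-type HAP1 cells labelled A (control A) stood beside WaplKO_3.3 cells (ΔWAPL clone 3.3), SCC4KO cells (ΔSCC4) and WaplKO_3.3/SCC4KO cells (ΔWAPL/ΔSCC4). Wild-type HAP1 cells labelled B (control B) stood beside WaplKO_1.14 cells (ΔWAPL clone 1.14). WAPL releases the cohesin ring from DNA, and SCC4 (gene symbol MAU2) is a subunit of the complex that loads it. All groups derive from a parental line with mutant p53. Each knockout was made with a CRISPR guide and the insertion of a drug resistance cassette, blasticidin for WAPL and puromycin for SCC4. The double knockout was made by knocking out SCC4 in ΔWAPL cells. Each WAPL genotype is 1 clone, and the controls are unedited cells without a cassette, so an effect of the knockout cannot be told apart from a property of the clone. The labels do not say that replicates are separate cultures, so the p-values measure only the spread between these samples, which may be technical.

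S100 proteins are small calcium-binding proteins with paired EF-hand motifs that mostly work as dimers. On binding calcium they expose a surface that docks onto partners such as annexins, myosin heavy chains and p53. Most of the family lies in the 1q21 cluster, beside the genes of the cornified skin envelope, and its members differ widely in the tissues that use them. S100A6 (calcyclin) is common in proliferating cells and fibroblasts.

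Each sample held 10007646 to 20711127 counts on genes. Replicates correlated with r between 0.981 and 0.9963 across genes, and no pair was identical. WAPL averaged 99.2 ± 21.5 CPM over control A, 43.7 ± 5.65 over clone 3.3, 121 ± 14.6 over control B and 41.3 ± 2.89 over clone 1.14 (each SD, n = 3). CPM is the gene's count scaled by edgeR to the size of its TMM-adjusted library. MAU2 had 5 to 17 reads in each sample of ΔSCC4 and ΔWAPL/ΔSCC4 and 736 or more in every other sample. Of 6 blood markers (PTPRC, CD34, SPI1, GATA1, KLF1, ITGAM), SPI1 was at 0 in all 18 samples and none exceeded 4 reads in a sample, although the line came from a leukaemia. Of 6 monocyte or neutrophil markers, MPO, S100A8, S100A9 and S100A12 were at 0 throughout. CD14 and LYZ held the 87 reads of this list, with at most 8 in a sample. The 5 keratinocyte markers had 4 reads in all. Summed epithelial markers, nearly all KRT18 and KRT8, ranged from 50.3 to 62.7 CPM in ΔSCC4, 41.7 to 47.6 in clone 1.14, 107 to 130 in ΔWAPL/ΔSCC4 and 56.8 to 81.9 in the other 3 groups. Summed fibroblast markers, nearly all COL1A1, ranged from 11.3 to 12.3 CPM in ΔSCC4, 28.0 to 32.2 in ΔWAPL/ΔSCC4 and 12.6 to 22.2 in the other 4 groups. The part of these markers in the results for the S100A genes was not tested.

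Of the 10 genes, 8 lie within 97.4 kb, from S100A6 to S100A1, on GRCh37 chromosome 1, as shown by their annotated coordinates. S100A6 (ENSG00000197956) spans 153507075 to 153508720 on the minus strand. It is followed at higher coordinates by S100A5, S100A4 (ENSG00000196154, 153516089 to 153522612), S100A3, S100A2, S100A16 (ENSG00000188643, 153579362 to 153585621), S100A13 (ENSG00000189171, 153591263 to 153603836) and S100A1, which alone is on the plus strand. S100A10 (ENSG00000197747, 151955391 to 151966335) and S100A11 (ENSG00000163191, 152004982 to 152020383) start at -1542.4 and -1488.3 kb relative to the start of S100A6, at lower coordinates.

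The sequences just before 1 annotated start of each of 3 genes are printed because these genes behaved differently. S100A6 had at most 2 reads in any sample of ΔSCC4 and clone 1.14. S100A4 was measured there at a lower level than in the control in every sample, and so it was in clone 3.3, which kept S100A6. S100A11 was higher in every knockout. Each window holds 250 bases on the minus strand of GRCh37, written 5′ to 3′ toward the gene, with CpG dinucleotides in capitals. The windows of S100A4 (chr1:153518283-153518532) and S100A11 (chr1:152009481-152009730) end at the RefSeq start. Both lie inside the annotated span of their gene, whose outermost start is further out. That of S100A6 (chr1:153508721-153508970) ends at the outermost annotated start, since the bases before its RefSeq start reach into annotated exons. None of the windows overlaps an annotated exon. Distances between genes are taken from the outermost starts.
S100A6: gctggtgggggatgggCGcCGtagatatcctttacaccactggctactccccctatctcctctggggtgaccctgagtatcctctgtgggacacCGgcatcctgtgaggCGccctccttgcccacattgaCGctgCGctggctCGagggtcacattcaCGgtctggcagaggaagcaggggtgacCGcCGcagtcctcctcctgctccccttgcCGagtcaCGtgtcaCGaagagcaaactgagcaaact
S100A4: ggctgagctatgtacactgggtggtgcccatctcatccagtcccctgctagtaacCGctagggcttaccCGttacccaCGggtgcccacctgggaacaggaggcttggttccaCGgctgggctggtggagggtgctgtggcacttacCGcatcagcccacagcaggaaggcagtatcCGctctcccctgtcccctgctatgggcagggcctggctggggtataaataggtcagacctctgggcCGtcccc
S100A11: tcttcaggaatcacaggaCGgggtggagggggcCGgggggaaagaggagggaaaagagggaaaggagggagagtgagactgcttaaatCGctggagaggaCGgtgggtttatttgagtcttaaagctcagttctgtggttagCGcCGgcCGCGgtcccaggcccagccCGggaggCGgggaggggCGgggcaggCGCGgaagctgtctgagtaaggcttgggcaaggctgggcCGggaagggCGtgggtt
The window of S100A6 holds 13 CpGs and 61.6% G or C, that of S100A4 7 CpGs and 62.8%, and that of S100A11 15 CpGs and 63.6%. Over the 250 bases before the RefSeq start of 27303 genes the medians were 11 CpGs and 58.0%. The 250 bases directly before the RefSeq start of S100A6, not printed since they reach into annotated exons, hold 24 CpGs, more than 76.7% of all promoters. Searched on both strands, TATAAA occurred in the window of S100A4 and in 11.1% of all promoters, and GGGCGG in that of S100A11 and in 42.3% of all promoters. GGGCGG also occurred in the 250 bases before the RefSeq start of S100A6, the window that compares with those of the other genes. Fewer CpGs were held by 53.6%, 41.6% and 57.3% of all promoters than by the windows of S100A6, S100A4 and S100A11.

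The knockouts were made with 1 guide each, printed because they define the genotypes compared here. Both were searched for over the 10 genes and 1000 bases on either side. The guide's own site is in lower case and the PAM beside it in capitals.
WAPL guide: cgttccatagtatcctgtaTGG
SCC4 guide: tacgggcctcgatgcgctgCGG
The WAPL site is at chr10:88259864-88259882 on the plus strand, in coding sequence of 1 of 2 annotated coding transcripts of WAPL. The SCC4 site is at chr19:19431849-19431867 on the minus strand, in coding sequence of 2 of 3 coding transcripts of MAU2. The closest match of either guide beside an NGG PAM in the searched region had 6 mismatches over 19 bases and lay in S100A10, and the closest at S100A6 had 7. These counts describe sequence only and do not measure cutting.

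S100A6 was present in 4 groups and practically absent in 2. Its read counts were 475, 480 and 377 in control A, and 326, 364 and 377 in control B. Clone 3.3 had 565, 408 and 539 reads, and ΔWAPL/ΔSCC4 had 633, 475 and 612. No read fell on S100A6 in any of the 3 samples of clone 1.14, and 1, 2 and 0 reads were counted in ΔSCC4. There was no overlap between the latter pair of groups and the other 4. In these bulk samples, fewer cells that express a gene and less RNA per cell cannot be told apart.

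In CPM, S100A6 averaged 27.7 ± 4.55 in control A, 30.9 ± 4.23 in clone 3.3, 33.3 ± 3.6 in ΔWAPL/ΔSCC4 and 22.7 ± 1.66 in control B (each SD, n = 3). These 4 groups spanned 21.2 to 36.0 CPM over 12 samples. In ΔSCC4 the 3 reads of the group, set against 1332 in control A, gave a level 364-fold lower, with a 95% exact interval of 124 to 1770 that covers counting error only. In clone 1.14 the level was at least 393-fold lower than in control B, with a floor of 3 reads over the group. A single sample with no read allows up to 0.149 to 0.305 CPM, depending on its depth.

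The double knockout lacked SCC4, as did ΔSCC4, 1 of the 2 groups that had lost S100A6, but by a separate edit made in ΔWAPL cells. The other, clone 1.14, kept MAU2 reads at 64.1 ± 1.53 CPM (SD, n = 3). The double knockout carries WAPL clone 3.3, which had not lost S100A6. The S100A6 level of the double knockout was near that of clone 3.3, at 29.2 to 36.0 CPM against 28.1 to 35.8. The samples of these groups overlapped. Thus the loss was seen in 1 of 2 ΔWAPL clones and in 1 of 2 groups without SCC4, and each of these groups with its clone, cassette and control set cannot be told apart from its genotype.

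**Figure D1:**
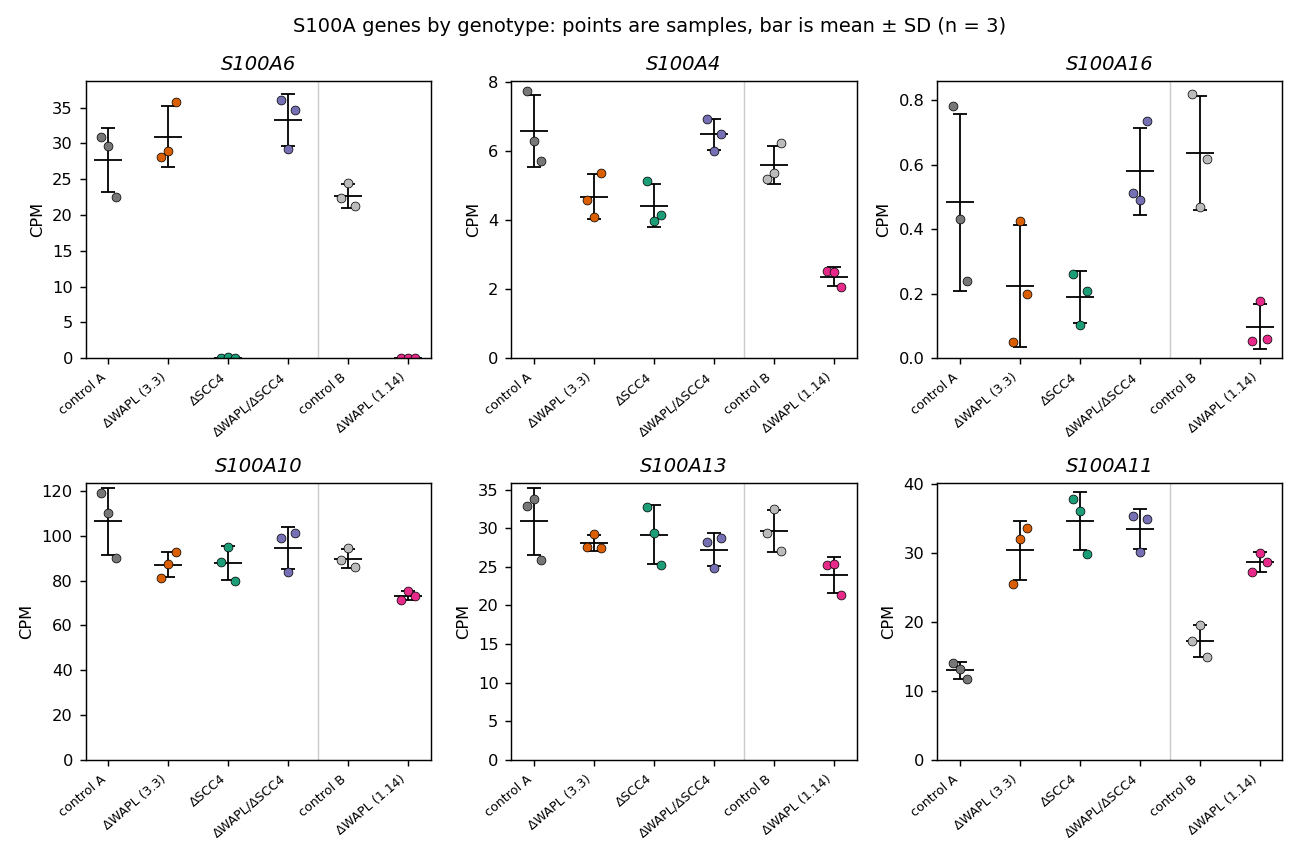
CPM of 6 S100A genes in the 18 samples, with 1 panel per gene, the group on the x axis and CPM on a y axis from 0 that differs between panels. Points are samples, the bar is the mean and the whiskers are the SD (n = 3), and the grey line parts the groups beside control A from those beside control B. S100A6 sits at or near 0 only in ΔSCC4 and clone 1.14, S100A4 is lowest in clone 1.14 at 2.05 to 2.54 CPM, and S100A11 is higher in all 4 knockout groups than in both controls.

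Levels of different members were compared per kilobase of exon (RPKM). In control A, S100A10 was highest with 105 ± 14.6 RPKM (SD, n = 3), followed by S100A6 with 28.5 ± 4.69 (SD, n = 3), S100A11 with 20.0 ± 1.85 (SD, n = 3), S100A13 with 13.9 ± 1.96 (SD, n = 3) and S100A4 with 6.96 ± 1.11 (SD, n = 3). S100A16 came next at 0.284 ± 0.162 RPKM (SD, n = 3), and the other 4 were lower still. S100A6 thus had rank 2 of 10 in control A. It had rank 3 in control B, behind S100A11 at 26.6 ± 3.68 RPKM (SD, n = 3) against 23.3 ± 1.71 (SD, n = 3), where the spreads overlap, and rank 3 in clone 3.3 and ΔWAPL/ΔSCC4. In ΔSCC4 it had rank 6 with 0.0922 ± 0.107 RPKM (SD, n = 3), next to S100A16 with 0.112 ± 0.0474 (SD, n = 3), and these did not differ beyond their spread. S100A10 led in every group.

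**Figure D2:**
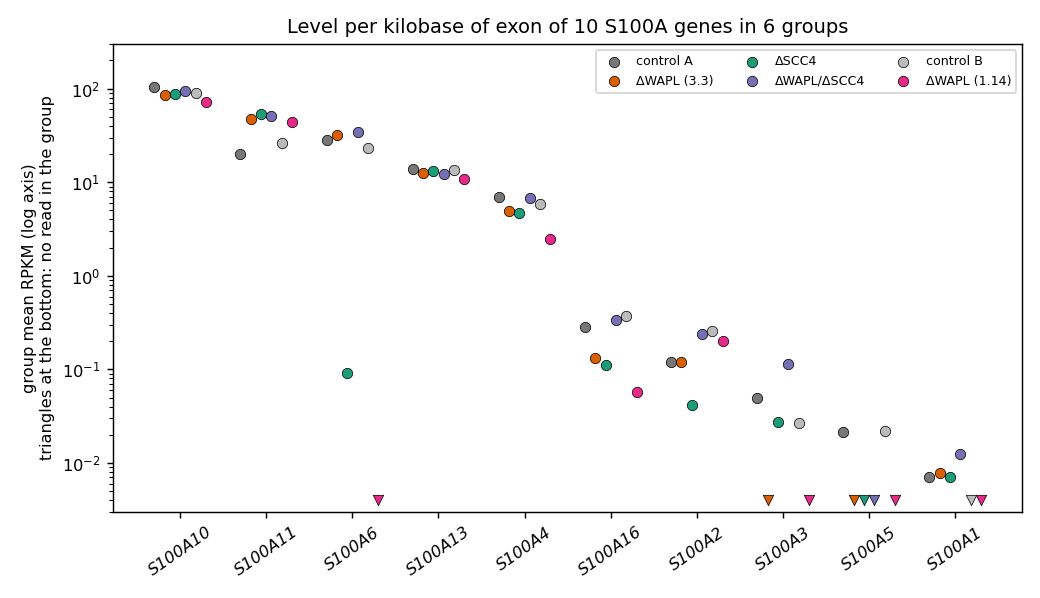
Group mean RPKM of the 10 S100A genes on a log axis, with genes on the x axis ordered by their mean over the groups and 1 point per group. Triangles at the bottom mark groups without a read, among them clone 1.14 for S100A6. The S100A10, S100A11, S100A13 and S100A4 points of all 6 groups lie between 2.5 and 105 RPKM, while S100A6 drops out of this range in ΔSCC4 and clone 1.14.

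In 4 of the 10 genes too few reads were counted to pass the filter in any comparison. S100A1, a calcium sensor of heart and skeletal muscle, had 5 reads over the 18 samples. S100A3, a protein of the hair cuticle, had 9, and S100A5, best known from olfactory tissue, had 2. At this depth a loss of any of these was not detectable. S100A2, typical of basal epithelial cells, starts 31.6 kb from S100A6 and had 75 reads, with 0 to 9 in a sample. Its reads were 5, 5 and 6 in clone 1.14 and 5, 5 and 9 in control B, which overlapped, so that it was still detected in the clone with no read of S100A6. It had 3, 0 and 0 reads in ΔSCC4 and 3, 4 and 2 in control A.

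S100A16, a widely expressed member, had 1 to 13 reads in every sample and was left out of most fits by the filter on low counts. It had 1, 3 and 1 reads in clone 1.14 and 12, 7 and 11 in control B, without overlap. It had 4, 1 and 3 reads in ΔSCC4, 1, 6 and 3 in clone 3.3, 9, 8 and 13 in ΔWAPL/ΔSCC4 and 12, 7 and 4 in control A. The double knockout was above clone 3.3 in every sample, at 0.579 ± 0.135 CPM (SD, n = 3) against 0.224 ± 0.189 (SD, n = 3). With so few reads it did not pass the filter in any comparison of knockout and control. In fits without that filter its log2 difference in clone 1.14 was -2.62, and -2.73 with DESeq2, and it was past the threshold in both. These are descriptions, as for every member in that clone. In ΔSCC4 its log2 fold change was -1.23 with adjusted p = 0.2748 (edgeR, no filter).

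S100A4 (metastasin), which binds non-muscle myosin heavy chain and is known from motile and metastatic cells, starts 13.9 kb from S100A6. Its CPM was 7.75, 6.29 and 5.72 in control A, 4.58, 4.1 and 5.38 in clone 3.3, and 5.14, 3.97 and 4.15 in ΔSCC4. Both knockouts lay below every control sample. It was 6.94, 6.02 and 6.5 in ΔWAPL/ΔSCC4, which overlapped control A and lay above every sample of clone 3.3.

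The log2 fold change of S100A4 was -0.51 (SE 0.194) in clone 3.3 and -0.58 (SE 0.193) in ΔSCC4, with adjusted p = 0.1558 and adjusted p = 0.09946 from edgeR. Neither passed the threshold of 0.05 in these pairwise fits. In 1 fit over all 18 samples both passed, at -0.49 (adjusted p = 0.03395, edgeR) and -0.56 (adjusted p = 0.01411, edgeR). That fit called 1753 and 2556 of 12976 genes. With the replicate number as a block, which pairs the samples of this comparison, the ΔSCC4 value was -0.58 with adjusted p = 0.004827 from edgeR, in a fit in which 46.0% of all genes tested passed. In ΔWAPL/ΔSCC4 the log2 fold change of S100A4 was -0.02 (SE 0.16, adjusted p = 0.9667, edgeR) against control A and 0.47 (SE 0.159, adjusted p = 0.07497, edgeR) against clone 3.3. Leaving out clone 3.3 sample 3 brought the latter to 0.57 with adjusted p = 0.02637 from edgeR. In clone 1.14, S100A4 was at 2.54, 2.49 and 2.05 CPM against 5.19, 5.38 and 6.24 in control B, with no overlap. This difference, -1.25 on the log2 scale (SE 0.134), is a description. S100A4 was thus at 0.42 of the control level in the clone that had no read of S100A6.

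S100A10 (p11), the partner of annexin A2 that has itself lost calcium binding, was the most abundant member in every group. Its CPM was 119, 110.0 and 90.1 in control A, 81.3, 87.2 and 92.7 in clone 3.3, 88.5, 95.1 and 79.7 in ΔSCC4, and 99.0, 84.0 and 101 in ΔWAPL/ΔSCC4. Each knockout overlapped the control. Its log2 fold change was -0.31 (SE 0.154, adjusted p = 0.3317, edgeR) in clone 3.3, -0.29 (SE 0.144, adjusted p = 0.2613, edgeR) in ΔSCC4 and -0.17 (SE 0.14, adjusted p = 0.6414, edgeR) in ΔWAPL/ΔSCC4. With the block the ΔSCC4 value was -0.29 with adjusted p = 0.004327 from edgeR, in a fit in which 46.0% of all genes tested passed. In clone 1.14 it was at 71.5 to 75.3 CPM against 85.9 to 94.4 in control B, -0.30 on the log2 scale (SE 0.061).

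S100A13, which takes part in the non-classical release of fibroblast growth factor, passed the threshold in no comparison. It starts 95.1 kb from S100A6. Its CPM lay between 25.2 and 33.8 in control A and ΔSCC4, which overlapped, and its log2 fold change was -0.15 (SE 0.156, adjusted p = 0.7179, edgeR) in clone 3.3, -0.09 (SE 0.161, adjusted p = 0.7734, edgeR) in ΔSCC4 and -0.18 (SE 0.139, adjusted p = 0.6074, edgeR) in ΔWAPL/ΔSCC4. In clone 1.14 it was at 25.2, 25.3 and 21.3 CPM against 29.4, 32.5 and 27.0 in control B, every sample lower, with a log2 difference of -0.31 (SE 0.104). S100A13 shares 235 bases of exon with S100A1 on the opposite strand and 536 bases with a long non-coding RNA on its own strand that has no row in the files, so reads of that RNA could be counted on S100A13.

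S100A11 (calgizzarin), which pairs with annexin A1, rose where S100A6 was lost and where it was kept. Its CPM was 14.1, 13.1 and 11.7 in control A, 25.5, 32.0 and 33.6 in clone 3.3, 37.8, 36.1 and 29.8 in ΔSCC4, and 35.3, 30.1 and 34.9 in ΔWAPL/ΔSCC4. Every knockout sample lay above every control sample. The log2 fold change was 1.21 (SE 0.169, adjusted p = 0.0001945, edgeR) in clone 3.3, 1.40 (SE 0.155, adjusted p = 0.0002255, edgeR) in ΔSCC4 and 1.36 (SE 0.134, adjusted p = 9.364e-05, edgeR) in ΔWAPL/ΔSCC4, 2.31-fold, 2.64-fold and 2.57-fold. These 3 comparisons share the samples of control A, so a low value in those samples would raise all 3.

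Control B, at 17.2, 19.6 and 14.9 CPM, was above control A in every sample, with a log2 difference of 0.39 (SE 0.155) that did not pass (adjusted p = 0.3888, edgeR). In clone 1.14, S100A11 was at 27.2, 30.0 and 28.7 CPM, above every sample of control B, with a log2 difference of 0.73 (SE 0.112). ΔWAPL/ΔSCC4 and clone 3.3 overlapped, with a log2 fold change of 0.14 (SE 0.135, adjusted p = 0.5854, edgeR). The annotation holds 8 pseudogenes named after S100A11. HTSeq does not count reads that align to several places, which were 14.3% to 16.1% of all, so reads shared with these copies are not part of its level.

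**Figure D3:**
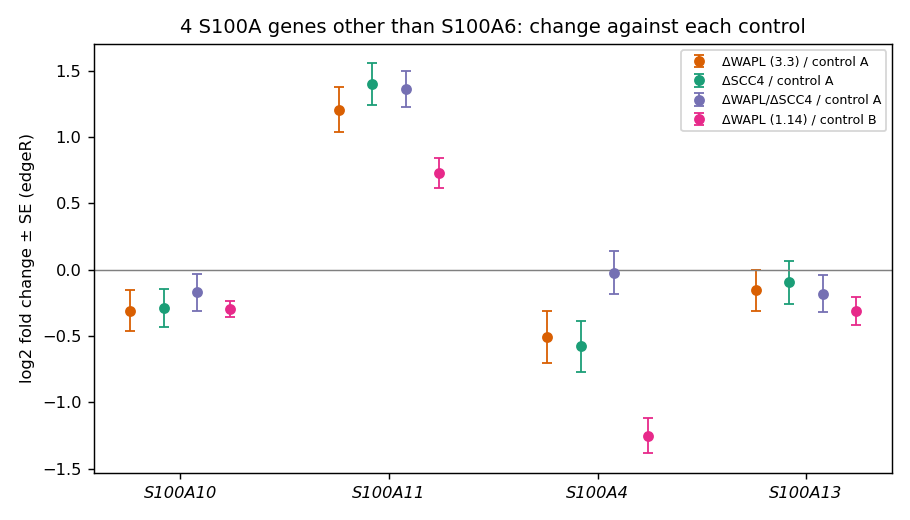
Log2 fold change of S100A10, S100A11, S100A4 and S100A13 in the 4 knockout groups against the control of their own set, with the SE as whiskers (edgeR, 3 samples against 3). S100A11 is above 0 in all 4 comparisons, from 0.73 to 1.40, and S100A4 is below -0.5 in 3 and at -0.02 in ΔWAPL/ΔSCC4.

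Counted over the family, 5 of the 10 genes passed the filter in each comparison of a knockout with its control, and S100A11 was the 1 gene that passed the threshold in all 4. In clone 3.3 it was 1 of 5, beside 8.07% of all genes tested. In ΔWAPL/ΔSCC4 it was 1 of 5, beside 7.95%. In ΔSCC4, 2 of 5 passed, S100A11 upward and S100A6 downward, beside 9.49%. In clone 1.14 it was 4 of 5, with S100A11 upward and S100A6, S100A4 and S100A10 downward, beside 20.1%. Without clone 1.14 sample 1, clone 1.14 sample 3 or control B sample 1, S100A10 was not past the threshold there, and without control B sample 3, S100A13 was. With DESeq2 and with no filter the count was 5, with S100A16 added, and in 1 fit over all 18 samples S100A16 passed in place of S100A10. As S100A6 was chosen on these samples, the last 2 counts are descriptions. None of 5 passed between ΔWAPL/ΔSCC4 and clone 3.3, beside 10.6%, and none of 6 between control B and control A, beside 0.640%. In edgeR's test 1 member had an unadjusted p under 0.05 in each of them, S100A4 in the former and S100A11 in the latter, and DESeq2 gave 0 calls in both.

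Whether loss of SCC4 had the same effect with and without WAPL was examined as the difference of the log2 fold changes in clone 3.3 and in control A, a test added after the values were seen. Of the 4 members tested other than S100A6, 2 passed, S100A4 and S100A11, beside 11.3% of all genes. The SCC4 effect on S100A4 was higher in clone 3.3 by 1.05 (SE 0.24, adjusted p = 0.009253, edgeR), from -0.58 in control A to 0.47. That on S100A11 was lower by 1.25 (log2 difference -1.25, SE 0.202, adjusted p = 0.0007114, edgeR), from 1.40 to 0.14. S100A10, at 0.42 (SE 0.18, adjusted p = 0.1584, edgeR), and S100A13, at 0.06 (SE 0.189, adjusted p = 0.8752, edgeR), did not pass. For S100A6 the fitted difference of 8.49 is a description, since it was chosen by these counts, and rests on 3 reads in ΔSCC4 and depends on the prior count. Between the WAPL clones, 1 of 6 members, S100A6, differed past the threshold, beside 2.65%. This is the contrast that chose it, and nothing is read from it. There S100A4 gave 0.76 (SE 0.229) and S100A11 0.49 (SE 0.189).

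Beyond the 10 genes, 68 other genes of the count data start within 1 Mb of the start of S100A6. Only the 10 genes were left out, so other S100 genes of the cluster can be among them. The 42 at lower coordinates, among them genes of the skin envelope, had too few reads to be tested, and 20 of the 26 at higher coordinates were tested. The 5 nearest, CHTOP, SNAPIN, ILF2, INTS3 and SLC27A3, start 97.7 to 238.1 kb away. None of them passed the threshold in any comparison of the main test. In clone 1.14, ILF2 was lower and passed with the replicate number as a block, and also without control B sample 3. Those fits called 3030 of 12636 and 4820 of 12701 genes. In the main test the log2 differences of the 5 genes ranged from -0.22 to 0.00 in clone 1.14 and from -0.28 to 0.13 in ΔSCC4. No tested gene within 0.25 Mb other than members was thus lost together with S100A6.

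In clone 1.14, 4 of 20 neighbours were past the threshold, each lower: SLC39A1, a zinc transporter, by -0.27 (SE 0.064), HAX1, an anti-apoptotic mitochondrial protein, by -0.38 (SE 0.102), ATP8B2, a lipid flippase, by -0.21 (SE 0.055) and IL6R, the interleukin-6 receptor, by -0.47 (SE 0.1), on the log2 scale. This is 20% beside 20.1% of all genes. The median over the 20 was -0.16, beside 0.00 over all genes. The count fell to 0 without clone 1.14 sample 2, clone 1.14 sample 3 or control B sample 1, and to 1 without clone 1.14 sample 1, and rose to 9 without control B sample 3. Over all genes, the fits that gave 0 called 1701 of 12728, 1473 of 12756 and 1523 of 12741, in that order. The fit without clone 1.14 sample 1 called 1415 of 12720, and that without control B sample 3 called 4820 of 12701. With all samples it was 2536 of 12636.

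In ΔSCC4, 1 of 19 neighbours passed, 5.26% beside 9.49% of all genes, with a median of 0.00. With the replicate number as a block, a pairing read from these same counts, 9 of 19 passed, or 47.4% beside 46.0% of all genes. Of these, 8 were lower, and they included IL6R and, of the 5 nearest, ILF2. The 1 gene past the threshold without the block was IL6R, 868.9 kb from S100A6, at 2.02, 2.54 and 1.52 CPM against 5.99, 4.32 and 5.72 in control A, without overlap. Its log2 fold change was -1.44 (SE 0.235, adjusted p = 0.00291, edgeR). IL6R was higher in ΔWAPL/ΔSCC4 than in clone 3.3 by 0.85 (SE 0.173, adjusted p = 0.003582, edgeR). Outside the rule for named genes, SHE, an adaptor protein gene, was higher in clone 3.3 than in control A (log2 fold change 2.35, SE 0.384, adjusted p = 0.0007727, edgeR) and in ΔWAPL/ΔSCC4 (2.30, SE 0.417, adjusted p = 0.00575, edgeR), and CREB3L4, a transcription factor gene, fell in ΔWAPL/ΔSCC4 by 0.55 on the log2 scale (log2 fold change -0.55, SE 0.126, adjusted p = 0.02224, edgeR). For SHE, control A had 2, 5 and 14 reads and control B 22, 17 and 17, a log2 difference of 1.43 (SE 0.482, adjusted p = 0.2906, edgeR), and in clone 1.14 it differed from control B by 0.13 (SE 0.265). SHE and CREB3L4 were named after their values were seen.

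**Figure D4:**
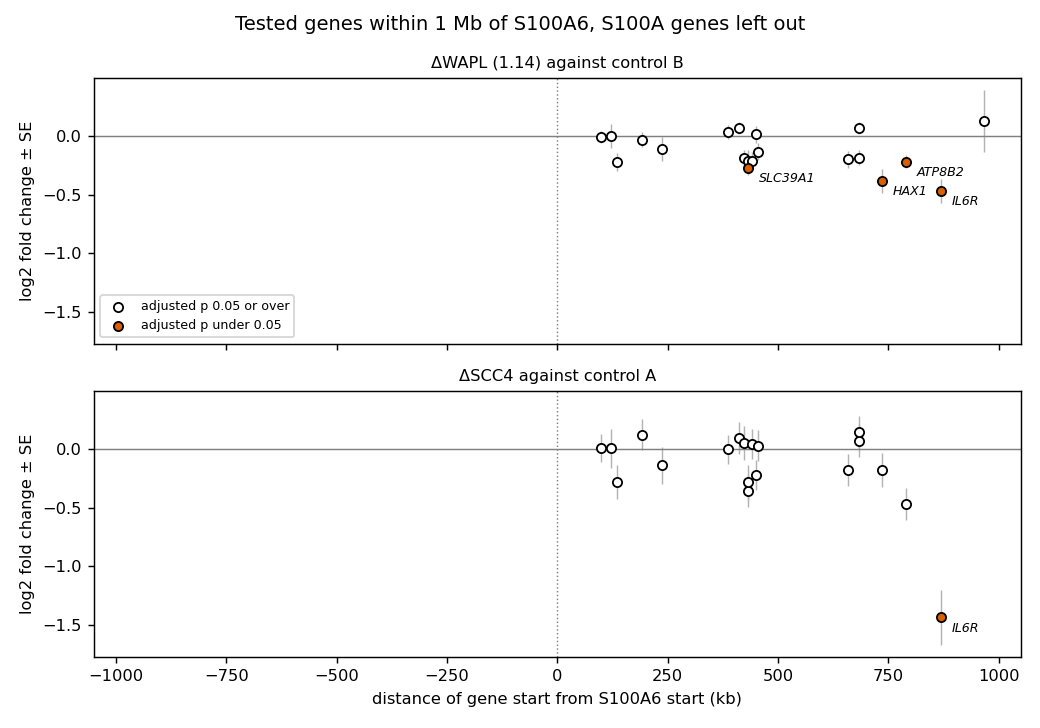
Log2 fold change with its SE of the tested genes whose start lies within 1 Mb of the start of S100A6, S100A genes left out, against their distance in kb. Filled points passed an adjusted p of 0.05. No gene at lower coordinates was tested, the 5 nearest tested genes lie near 0 in both comparisons, and IL6R at 868.9 kb is the lowest in both, at -0.47 and -1.44.

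The pattern of S100A6 was looked for across the 12975 genes ranked, as the Pearson correlation of log2 CPM over the 18 samples, which share libraries and groups. The 5 most like it were SLC17A9 (r = 0.997), a vesicular nucleotide transporter, TAL1 (r = 0.996), a transcription factor of blood formation, GABRA5 (r = 0.973), a subunit of the GABA-A receptor, EXOSC7 (r = 0.96), an exosome subunit, and MGMT (r = 0.957), a DNA repair protein. SLC17A9 averaged 0.134 CPM in ΔSCC4 and 0.0374 in clone 1.14, against 15.1 to 28.5 in the other groups. TAL1 averaged 4.39 and 2.71 CPM there and 54.4 to 82.5 elsewhere. They lie on chromosomes 20, 1, 15, 3 and 10. Of the family, S100A4 ranked highest (r = 0.788, rank 142), followed by S100A16 (r = 0.648), S100A10 (r = 0.624) and S100A13 (r = 0.412), and S100A11 gave r = -0.406.

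The other 11 S100 genes with a row in the files had 33 reads in all, with 7 at 0 in all 18 samples, and the 7 genes with an S100 domain fused to a long repeat, such as filaggrin, also had 33. None of either list could be tested. Of 14 genes for proteins known to bind S100 proteins, 13 were tested. The number past the threshold was 3 in clone 3.3, 4 in clone 1.14, 3 in ΔSCC4 and 2 in ΔWAPL/ΔSCC4. These are 23.1%, 30.8%, 23.1% and 15.4% of the 13, beside 8.07%, 20.1%, 9.49% and 7.95% over all genes tested. For these 13 the median log2 fold change was 0.04, -0.07, -0.12 and 0.11, beside 0.00, 0.00, 0.00 and 0.00 over all genes.

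ANXA1 (annexin A1), the partner of S100A11, was the 1 gene of this list past the threshold in all 4, each time upward. It averaged 31.8 ± 1.12 CPM (SD, n = 3) in control A, 360.0 ± 31.0 for clone 3.3, 202 ± 36.1 for ΔSCC4 and 232 ± 5.28 for ΔWAPL/ΔSCC4 (each SD, n = 3). The log2 fold changes were 3.48 (SE 0.151, adjusted p = 2.315e-09, edgeR), 2.65 (SE 0.154, adjusted p = 3.233e-06, edgeR) and 2.86 (SE 0.115, adjusted p = 2.222e-07, edgeR). In clone 1.14 it was at 126 ± 5.77 CPM (SD, n = 3) against 37.7 ± 10.3 (SD, n = 3) in control B, a log2 difference of 1.73 (SE 0.177).

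SYT1 (synaptotagmin 1), named after its values were seen, had the largest falls of the list against control A. It averaged 15.5 ± 3.01 CPM in control A, 2.3 ± 0.312 in clone 3.3, 4.58 ± 0.254 in ΔSCC4 and 0.778 ± 0.0921 in ΔWAPL/ΔSCC4 (each SD, n = 3). The log2 fold changes were -2.77 (SE 0.204, adjusted p = 4.207e-07, edgeR), -1.77 (SE 0.188, adjusted p = 0.0001693, edgeR) and -4.31 (SE 0.217, adjusted p = 1.308e-06, edgeR). In clone 1.14 it was at 11.4 ± 0.39 CPM (SD, n = 3) against 12.3 ± 2.76 (SD, n = 3) in control B, which overlapped.

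CACYBP, the calcyclin-binding protein, averaged 182 to 241 CPM and ANXA2 (annexin A2), the partner of S100A10, 712 to 969 over the 6 groups, and neither passed in any comparison with a control. SUGT1, a co-chaperone bound by S100A6 and also named after its values were seen, was at 142 to 150.0 CPM in clone 1.14 and 84.1 to 124 in control B, a log2 difference of 0.45 (SE 0.128) past the threshold, and passed in no other comparison. MYH9, the myosin heavy chain bound by S100A4, was lower in clone 3.3 (log2 fold change -0.58, SE 0.153, adjusted p = 0.02562, edgeR) and higher in ΔWAPL/ΔSCC4 than in clone 3.3 (0.71, SE 0.109, adjusted p = 0.0002753, edgeR), and its log2 difference in clone 1.14 against control B was -0.27 (SE 0.041). HSP90AA1, the inducible cytosolic HSP90, fell in ΔSCC4 by 0.48 on the log2 scale (log2 fold change -0.48, SE 0.124, adjusted p = 0.03418, edgeR). AHNAK, a scaffold that binds the S100A10 and annexin A2 complex, gave a log2 difference of -0.23 (SE 0.06) in clone 1.14 against control B. It was higher in ΔWAPL/ΔSCC4 than in clone 3.3 (log2 fold change 0.58, SE 0.101, adjusted p = 0.0009516, edgeR).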

How the data were processed

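Polyadenylated RNA was sequenced from 18 HAP1 samples with a strand-specific kit. The authors aligned reads with TopHat2 to hg19 and deposited HTSeq counts per gene, not normalised. Lines that name no gene held 20.34% to 22.62% of the counts and were left out. Symbols and positions come from GRCh37 (96.6% of identifiers matched), upstream sequences from GRCh37 and RefSeq promoters. The set of a knockout sample was read from its run number.

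The main test was edgeR 4.0.16 (quasi-likelihood, TMM, filterByExpr) in R 4.3.3, fitted to the groups compared over all genes, with Benjamini-Hochberg adjustment at 0.05. DESeq2 1.42.0 was an alternative, as were its size factors, other filters, the replicate number taken as a block, 1 fit of the 18 samples together, and each replicate left out. The authors also used DESeq2. The fits were tested on simulated data. CPM are TMM-scaled, log2 CPM had a prior count of 2, and SEs were derived from the F statistic. The labels number the replicates but name no pairs. Judged from these counts, only ΔSCC4 and control A went together by number: deviations of same-numbered samples correlated with r = 0.741, 0.156 and 0.679. The lowest such r was -0.601 for ΔWAPL/ΔSCC4 and -0.566 for clone 3.3, each with control A. An r of this size thus does not establish pairs.

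Named genes were all members, the nearest neighbours past the threshold in clone 1.14 (up to 6) and the 5 genes most like S100A6. At most 4 called genes of each other list were named, highest average log2 CPM first. Also named were the targeted genes and the markers. Outside this rule are CACYBP, ANXA2, the 5 nearest tested neighbours and the genes marked so in the text. Members and lists were chosen with earlier results of these data known. Intervals cover counting error only.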

Additional observations from a re-analysis of the deposited data

Results flagged for a closer look

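Effects on 3 S100A genes differed between the backgrounds in which they were measured. The difference between the effects of the WAPL clones on S100A6 was 11.70 on the log2 scale. It was fitted against 0 reads in clone 1.14, so that its size depends on the prior count, and S100A6 was chosen for it. The effect of SCC4 loss in clone 3.3 less that in control A was 8.49 for S100A6, fitted against 3 reads in ΔSCC4, 1.05 for S100A4 and -1.25 for S100A11. The values behind these differences are per-sample levels that do not overlap for S100A6 between ΔSCC4 and ΔWAPL/ΔSCC4. No explanation was tested.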

How the results depend on the processing

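Of the members' fold changes recomputed under the alternatives, 536 kept their direction and side of the threshold, 8 came to pass it, 4 no longer passed and 16 turned. In clone 1.14, 5 members passed with DESeq2 and with no filter against 4 in the fit reported, the added one being S100A16. S100A11 kept its direction and its side of the threshold under every alternative run. Of the 10 genes, the number past the threshold became 2 in clone 3.3 and 1 in ΔWAPL/ΔSCC4 against clone 3.3 with 1 fit over all 18 samples. S100A4 was the gene added in each, and in that fit it also passed in ΔSCC4. With at least 10 counts in every sample it was 1 in ΔSCC4 and 0 between the clones, since S100A6 is then not tested. Leaving out 1 replicate gave 0 to 1 in ΔWAPL/ΔSCC4 against clone 3.3, with 1 (S100A4) without clone 3.3 sample 3. In clone 1.14, S100A10 was no longer past the threshold in 1 fit over all samples or without clone 1.14 sample 1, clone 1.14 sample 3 or control B sample 1, and S100A13 passed it without control B sample 3.

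The neighbours past the threshold in clone 1.14 were 0 of 5 within 0.25 Mb and 11 of 52 within 2 Mb, 21.2% beside 20.1% of all genes. Within 1 Mb they were 2 with DESeq2, where 2120 of 14419 genes passed, and 0 of 20 in 1 fit over all samples, where 1788 of 12976 did. They were 0 to 9 of 20 when 1 replicate was left out, in fits that called 1415 to 4820 genes. With the replicate number as a block they were 7 of 20, or 35%, in a fit that called 3030 of 12636 genes. By the counts, the numbers did not pair these samples. In ΔSCC4, where a pairing was read from the counts, the members past the threshold with the block were 4. There the block raised the calls over all genes from 1186 to 5754. The ΔSCC4 neighbours, recomputed after seeing the data, were 9 of 19 with the block against 1 of 19 without it. They were 2 with DESeq2, where 1244 of 13745 genes passed, and 3 of 20 in 1 fit over all samples, where 2556 of 12976 did. Within 0.25 Mb they were 0 of 5, and within 2 Mb 4 of 52, 7.69% beside 9.49% of all genes. The block also put S100A13 in clone 1.14 past the threshold and changed no other call of a member beside S100A4 and S100A10 in ΔSCC4.

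Directions that turned were all of values near 0. With 1 replicate left out, S100A13 ranged from -0.210 to 0.006 in ΔSCC4 (above 0 without ΔSCC4 sample 3), from -0.082 to 0.035 in ΔWAPL/ΔSCC4 against clone 3.3 (without ΔWAPL/ΔSCC4 sample 2) and from -0.188 to 0.021 in control B against control A (without control B sample 3, 0.002, or control A sample 2). Its SCC4 effect difference ranged from -0.035 to 0.178 (-0.035 and -0.006 without ΔSCC4 sample 3 and control A sample 2). S100A4 in ΔWAPL/ΔSCC4 ranged from -0.118 to 0.132 (0.021 and 0.132 without ΔWAPL/ΔSCC4 sample 2 and control A sample 1). The difference between the clones for S100A10 became -0.001 with DESeq2, -0.002 with its size factors, -0.014 with no filter, -0.003 with at least 10 counts, and with 1 replicate left out it ranged from -0.101 to 0.083, with -0.042, -0.101, -0.012 and -0.033 without clone 3.3 sample 3, control A sample 3, clone 1.14 sample 1 and control B sample 2.

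Over all genes, 1 fit over all samples called 1753 in clone 3.3, 2556 in ΔSCC4 and 408 between the controls. Between the controls the block gave 162, DESeq2 142 and no filter 127, and between the clones the block gave 173 and at least 10 counts 211. Leaving out 1 replicate gave 1415 to 4820 in clone 1.14, 662 to 2317 in ΔSCC4, 586 to 1552 in ΔWAPL/ΔSCC4 and 0 to 107 between the controls. The cause was not tested. At this depth a sample with no read allows 0.149 to 0.305 CPM, which leaves S100A1, S100A3 and S100A5 unmeasured.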
